A study of Mus musculus with 12 samples.

Results

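The genes described here are 10 members of the signalling niche of the Langerhans cell (LC), the antigen-presenting cell of the epidermis: the cytokine ligands Il34 and Csf1 with their shared receptor Csf1r, the ligands Tgfb1 and Tgfb2 with the receptor subunits Tgfbr1 and Tgfbr2, and the integrin subunits Itgav, Itgb6 and Itgb8. They were chosen by gene symbol, and all 10 were found among the 32285 genes of the deposited count matrices. The libraries came from the glabrous epidermis of the hind paw of wild-type C57BL/6J mice, freed with Dispase and then dissociated with TrypLE, and were made with 10x 3' v3.1 chemistry, 1 library per mouse. Males and females were placed at 6 to 8 weeks of age on a regular diet (RD, 11% fat) or a high-fat diet (HFD, 42% fat) for 10 weeks and were 16 to 18 weeks old at sampling. Each sex gave 3 mice on either diet, which makes 4 groups. No drug was given to any of these groups, and every group carried the same wild-type genotype.

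LCs seed the epidermis early in life and maintain themselves there by local division. IL-34, made by keratinocytes, signals through the CSF1 receptor and is known to be needed for LCs to persist in skin, while CSF1, the other ligand of that receptor, supports macrophages in most tissues. TGF-β1 is required for LCs to form and to stay in the epidermis. It is secreted in a latent complex, and the integrins αvβ6 and αvβ8 on keratinocytes are known to release it, after which it signals through a receptor made of TGFBR1 and TGFBR2.

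Each library held between 134449247 and 194673581 unique molecular identifiers (UMIs, which count single captured transcripts), and 126375 cells were kept, 62147 from males and 64228 from females. Any 2 libraries shared at most 70 cell barcodes, and in no pair did the shared ones exceed 0.564% of the smaller library. The cells of each sex were clustered without the 10 genes and without the pathway genes listed further on, and clusters were named from marker genes. Keratinocyte classes that could be named in both sexes were basal, proliferating, suprabasal, terminally differentiated and migratory (marked by Krt79, Cst6 and Defb6, genes of the upper hair follicle and ducts). A further 3 keratinocyte clusters, found in both sexes, took no name and are called by their leading genes, Foxn1/Notch3, Serpinb3a/Wfdc17 and Dynap/Csrp2. Il34 was itself among the leading genes of the female Foxn1/Notch3 cluster, though it was not used to form or name it. The cells of 1 more unnamed cluster in each sex belong to no class: 548 male cells with a median of 1044 UMIs, led by Lars2, and 406 female cells, led by Sox5 and Lhx2. Levels are given as CPM, the UMIs of a gene over all UMIs of a class in 1 mouse, scaled up by the constant factor that this unit is named for, as mean ± SD over the 6 mice of a sex. Because 3' libraries do not count transcripts per length, levels are not compared between genes. Male libraries were counted with Cell Ranger 6.1.0 and female ones with 7.2.0 according to the file headers, so that sex and counting software cannot be told apart and no level is compared between the sexes.

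The cluster taken for LCs held 1339 cells in males, 130 to 432 per mouse, and 2139 in females, 294 to 463 per mouse. It is called LC-like. All 10 LC markers passed the fold over the other cells that naming asked for, with a summed level of 38611 to 57887 CPM per mouse, and Cd207, which encodes langerin, stood at 2770 CPM in males and 3746 CPM in females. Of other cells of the epidermis and dermis, the 6 melanocyte markers summed to 22.95 to 53.1 CPM in males and 70.5 to 101 CPM in females, the 10 T cell markers summed to 4.02 to 12.1 CPM and the 5 fibroblast markers to at most 0.835 CPM. The 10 macrophage and monocyte markers summed to 186 to 959 CPM, with C1qa at 418 CPM in males and 133 CPM in females, while the monocyte genes Ccr2 and Ly6c2 were at 0 or near it (0 and 0 UMIs in males, 3 and 0 in females). Keratinocyte transcripts were present: the keratins Krt1, Krt5, Krt10 and Krt14 together reached 44.9% ± 9.0 (SD, n = 6) of their level in keratinocytes in male LC-like cells and 25.3% ± 6.3 (SD, n = 6) in female ones. The part of these transcripts in the LC-like levels of Il34 and Itgb6 was not tested by any fit, and their values are given beside the keratins further on.

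Il34 was most abundant in the Foxn1/Notch3 cluster and in suprabasal keratinocytes. In males it reached 43.1 ± 4.9 CPM (SD, n = 6) in the Foxn1/Notch3 cluster, with a range of 36.8 to 50.3, and 32.8 ± 5.3 CPM in suprabasal cells, with a range of 26.0 to 40.3. Basal cells held 6.6 ± 2.0 CPM, and no basal value of any male reached the lowest value of either of those classes. Suprabasal cells exceeded basal cells of the same mouse 5.06-fold (log2 difference 2.34 ± 0.29, SD), and the Foxn1/Notch3 cluster exceeded them 6.70-fold, in 6 of 6 males each.

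In females the level was 91.8 ± 6.5 CPM (SD, n = 6) in suprabasal cells, 79.5 ± 3.6 CPM in the Foxn1/Notch3 cluster and 16.9 ± 3.5 CPM in basal cells. Suprabasal cells exceeded basal ones 5.52-fold (log2 difference 2.46 ± 0.31) and the Foxn1/Notch3 cluster exceeded them 4.79-fold, again in 6 of 6 mice each. The order of the 2 highest classes differed between the sexes, the Foxn1/Notch3 cluster being above suprabasal cells in 6 of 6 males and in 0 of 6 females. This order turned in females with up to 10% mitochondrial UMIs and new clusters, at 86.0 CPM in the Foxn1/Notch3 cluster and 71.0 CPM in suprabasal cells, higher in 6 of 6 females, and at the raised clustering resolution the levels were 81.6 and 80.7 CPM, higher in 4 of 6. Serpinb3a and Wfdc17 were then among the leading genes of female suprabasal clusters, of 9772 cells in the former run and 4986 in the latter. The suprabasal class there did not hold the same cells as in the main run, so a change of order within like cells was not tested. In males with the highest doublet scores removed the levels were 44.8 and 41.9 CPM, the Foxn1/Notch3 cluster being higher in 5 of 6. The lower classes came next. Male levels were 13.2 ± 2.9 CPM in proliferating cells, 11.95 ± 1.04 in migratory cells, 8.6 ± 3.1 in the Dynap/Csrp2 cluster, 5.9 ± 1.8 in the Serpinb3a/Wfdc17 cluster and 4.1 ± 1.9 in terminally differentiated cells, and neighbours in this order overlapped in their ranges. Female levels were 38.9 ± 2.6 CPM in the Serpinb3a/Wfdc17 cluster, 35.6 ± 5.3 in migratory cells, 23.0 ± 2.3 in proliferating cells, 17.1 ± 3.3 in the Dynap/Csrp2 cluster and 10.3 ± 4.2 in terminally differentiated cells, where proliferating cells lay wholly below the migratory range and the other neighbours overlapped. The Serpinb3a/Wfdc17 cluster thus stood below proliferating cells in males and above them in females. The sexes were clustered apart, at resolutions 0.2 and 0.3, so classes of the same name need not hold like cells. In females no cluster took the name Serpinb3a/Wfdc17 with up to 10% mitochondrial UMIs or at the raised resolution, so this order was not checked there. These comparisons between classes are descriptions, since the classes come from the same cells.

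Counted as a share of all Il34 UMIs, the Foxn1/Notch3 cluster gave 47.7% ± 3.3 in males (SD, n = 6) from 28.8% of the cells, and suprabasal cells gave 31.1% ± 5.4 from 14.3% of the cells. In females the shares were 33.8% ± 2.1 and 37.2% ± 1.3, from 22.7% and 14.6% of the cells. Basal cells, with 22.7% of male and 26.2% of female cells, gave 4.43% ± 0.70 and 7.20% ± 1.97 of the Il34 UMIs. The Foxn1/Notch3 cluster and suprabasal cells thus gave most of the captured Il34 transcripts in both sexes. Set against shares of cells, these shares also hold differences in depth. The median UMIs per cell were 17089 in suprabasal, 9651 in Foxn1/Notch3 and 7149.5 in basal cells of males. In females they were 15643.5, 10550 and 9076.

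**Figure D1:**
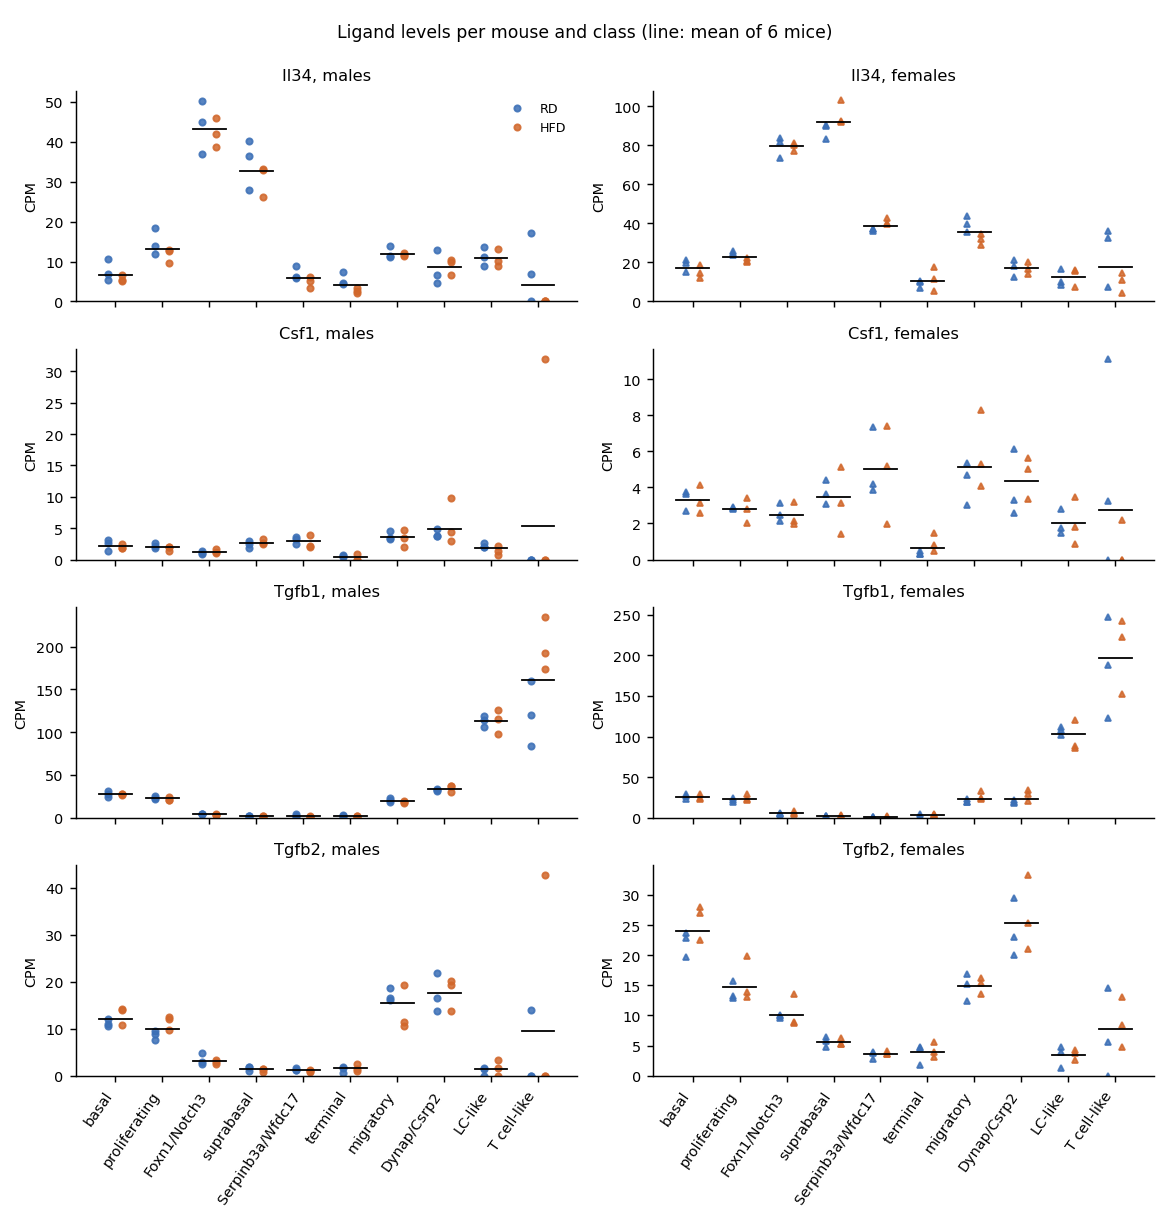
Levels of the ligands Il34, Csf1, Tgfb1 and Tgfb2 in each cell class, in CPM, with 1 point per mouse coloured by diet, males on the left and females on the right, and a line at the mean of the 6 mice. Il34 is highest in the Foxn1/Notch3 cluster and in suprabasal cells, while Tgfb1 is low there and is highest in T cell-like and LC-like cells.

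In the plot of the ligands by class, the 2 classes highest in Il34 are low in Tgfb1, while terminally differentiated cells are low in both (4.1 and 1.81 CPM in males, 10.3 and 2.91 CPM in females). Levels were also read without clusters, by sorting keratinocytes into 10 bins by the share of Krt1 and Krt10, keratins of differentiating cells, among the UMIs of these 2 and of the basal keratins Krt5 and Krt14. From the first to the last bin Il34 went from 3.82 to 32.2 CPM in males, 8.44-fold, and from 12.4 to 78.7 CPM in females, 6.33-fold, with 8 of 9 steps upward in each sex. Tgfb1 went the other way, from 30.2 to 1.33 CPM in males and from 28.5 to 2.22 CPM in females, with 8 of 9 steps downward in each sex. Tgfbr2 followed the direction of Tgfb1, from 37.6 to 4.99 CPM in males and from 69.9 to 10.6 CPM in females.

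**Figure D2:**
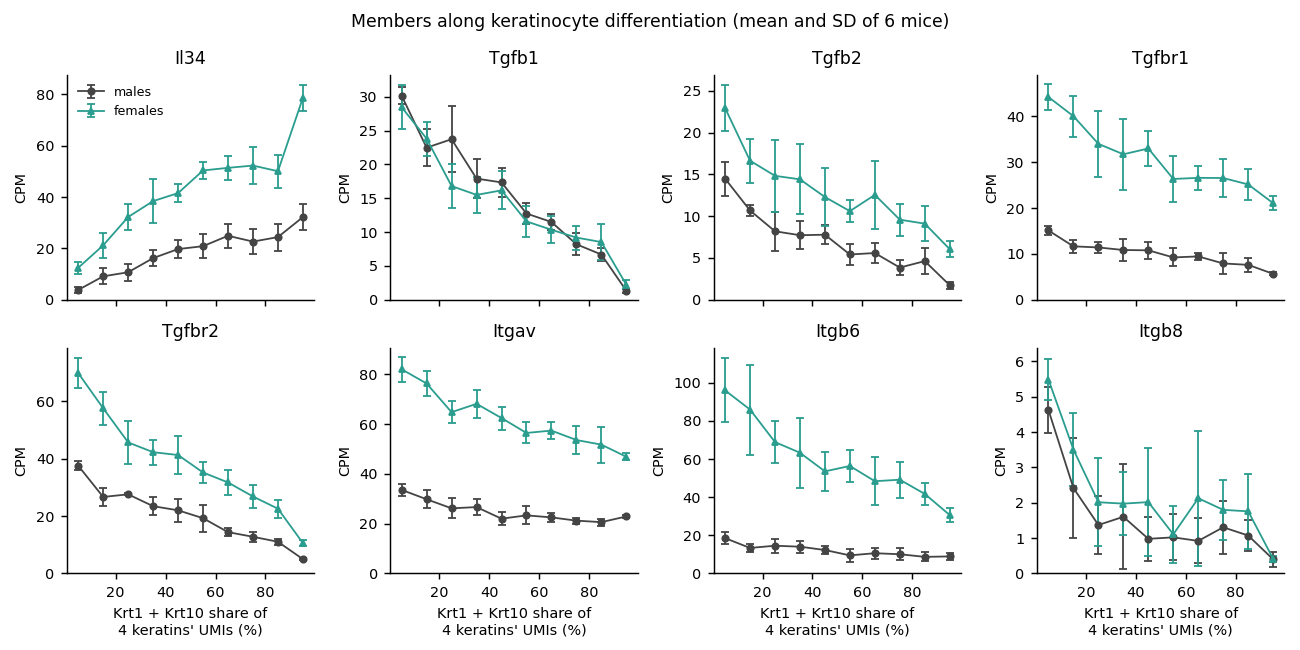
Levels in CPM of 8 members in keratinocytes sorted into 10 bins by the percentage of Krt1 and Krt10 among the UMIs of 4 keratins, with points at the mean and bars at the SD of the 6 mice of each sex. Il34 climbs from 3.82 to 32.2 CPM in males and from 12.4 to 78.7 CPM in females, and Tgfb1 declines from 30.2 to 1.33 and from 28.5 to 2.22 CPM.

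Csf1 was scarce in every class. No class mean exceeded 5.33 CPM, a T cell-like value of males that rests on 3 UMIs, all from HFD replicate 3. The highest keratinocyte means were 4.94 ± 2.51 CPM in the Dynap/Csrp2 cluster of males and 5.12 ± 1.78 CPM in migratory cells of females (SD, n = 6). Over all cells, 1646 Csf1 UMIs were counted in males and 2520 in females. Along the keratinocyte bins it stood at 2.61 CPM in the first and 1.99 in the last bin in males and 3.41 and 3.37 in females.

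Tgfb1, the TGF-β ligand that LCs themselves are known to make and need, was highest in T cell-like and LC-like cells. T cell-like cells held 161 ± 53 CPM in males and 196 ± 50 CPM in females (SD, n = 6), from only 23 to 89 cells per mouse. LC-like cells held 113 ± 10 CPM in males, with a range of 97.9 to 126, and 103 ± 13 CPM in females, with a range of 85.8 to 120. Their level was 4.12-fold that of basal keratinocytes in males and 3.95-fold in females, in 6 of 6 mice of each sex.

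Among keratinocytes Tgfb1 was concentrated at the base. Basal cells held 27.4 ± 2.2 CPM in males and 25.9 ± 2.9 in females, proliferating cells 22.4 ± 1.9 and 23.3 ± 3.6, migratory cells 19.3 ± 2.2 and 23.6 ± 5.3, and the Dynap/Csrp2 cluster 33.3 ± 3.0 and 23.5 ± 6.5. Suprabasal cells held 1.51 ± 0.26 and 1.91 ± 0.43 CPM, so that basal cells were 18.4-fold above them in males and 13.8-fold in females. Basal and proliferating cells together nevertheless gave most Tgfb1 UMIs, 34.8% and 30.3% in males and 32.9% and 29.0% in females, while LC-like cells gave 10.0% ± 1.7 and 14.6% ± 3.8.

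Tgfb2, the other TGF-β ligand, shared the basal side of this pattern but not the LC side. In males it stood at 17.6 ± 3.4 CPM in the Dynap/Csrp2 cluster, 15.4 ± 3.6 in migratory cells and 12.1 ± 1.6 in basal cells, and in females at 25.4 ± 5.1, 14.9 ± 1.7 and 24.0 ± 3.1 CPM. Basal cells exceeded suprabasal cells 8.87-fold in males and 4.25-fold in females, in 6 of 6 mice each. LC-like cells held 1.34 ± 1.28 CPM and 3.46 ± 1.28 CPM.

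Csf1r, the receptor for IL-34 and CSF1, was nearly restricted to LC-like cells. They held 559 ± 84 CPM in males, with a range of 494 to 675, and 415 ± 60 CPM in females, with a range of 361 to 521. The keratinocyte classes held mean levels of 0.085 to 0.624 CPM in males and 0.322 to 1.18 CPM in females. LC-like cells gave 97.7% ± 0.4 of all Csf1r UMIs in males and 94.0% ± 1.0 in females (SD, n = 6). T cell-like cells had 0 Csf1r UMIs in males and 2 in females. With the cells of highest doublet score removed and the rest clustered again, the level in male LC-like cells was 874 CPM.

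A Csf1r UMI was found in 91.0% ± 3.7 of male and 89.5% ± 4.2 of female LC-like cells, whose median depths were 4527 and 6731 UMIs. After each cell was thinned to 1000 UMIs, leaving out 13 shallower LC-like cells in each sex and 3 to 314 cells of each keratinocyte class, the shares were 50.4% ± 2.5 and 36.8% ± 3.8. In keratinocyte classes the share was between 0.0738% and 1.11% before thinning and between 0.0077% and 0.193% after it, although their median depths were 6364 to 20444 UMIs, which gives the background in cells that should lack the receptor.

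Tgfbr1, the signalling subunit of the TGF-β receptor, was present in LC-like cells and in the lower keratinocyte classes. LC-like cells held 27.9 ± 6.6 CPM in males and 79.9 ± 20.7 CPM in females (SD, n = 6), 1.90-fold and 1.72-fold the level in basal cells, and higher in 6 of 6 mice of each sex. Basal cells held 14.5 ± 1.4 and 45.3 ± 2.5 CPM, suprabasal cells 5.84 ± 0.59 and 21.0 ± 1.3, and terminally differentiated cells 1.29 ± 0.73 and 5.86 ± 1.27. Over these classes the level therefore went down from the base to the surface in both sexes. The Dynap/Csrp2 cluster ranged from 10.7 to 21.8 CPM in males and from 46.9 to 66.7 CPM in females. Its highest mice lay above every basal value of their sex, and the ranges overlapped.

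Tgfbr2, the ligand-binding subunit, was highest in T cell-like cells, at 76.6 ± 24.1 CPM in males and 151 ± 32 CPM in females. Basal keratinocytes held 38.3 ± 1.5 and 72.2 ± 6.5 CPM and LC-like cells 33.0 ± 6.7 and 56.1 ± 7.2. LC-like cells were above basal cells in 1 of 6 males and 0 of 6 females. In males this order depended on the cells counted, since the mean of LC-like cells was 43.6 CPM with the highest doublet scores removed and the pooled level of their main subcluster was 42.3 CPM, both above the basal mean. Basal cells exceeded suprabasal cells 9.89-fold in males and 7.95-fold in females, against 2.48-fold and 2.16-fold for Tgfbr1.

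**Figure D3:**
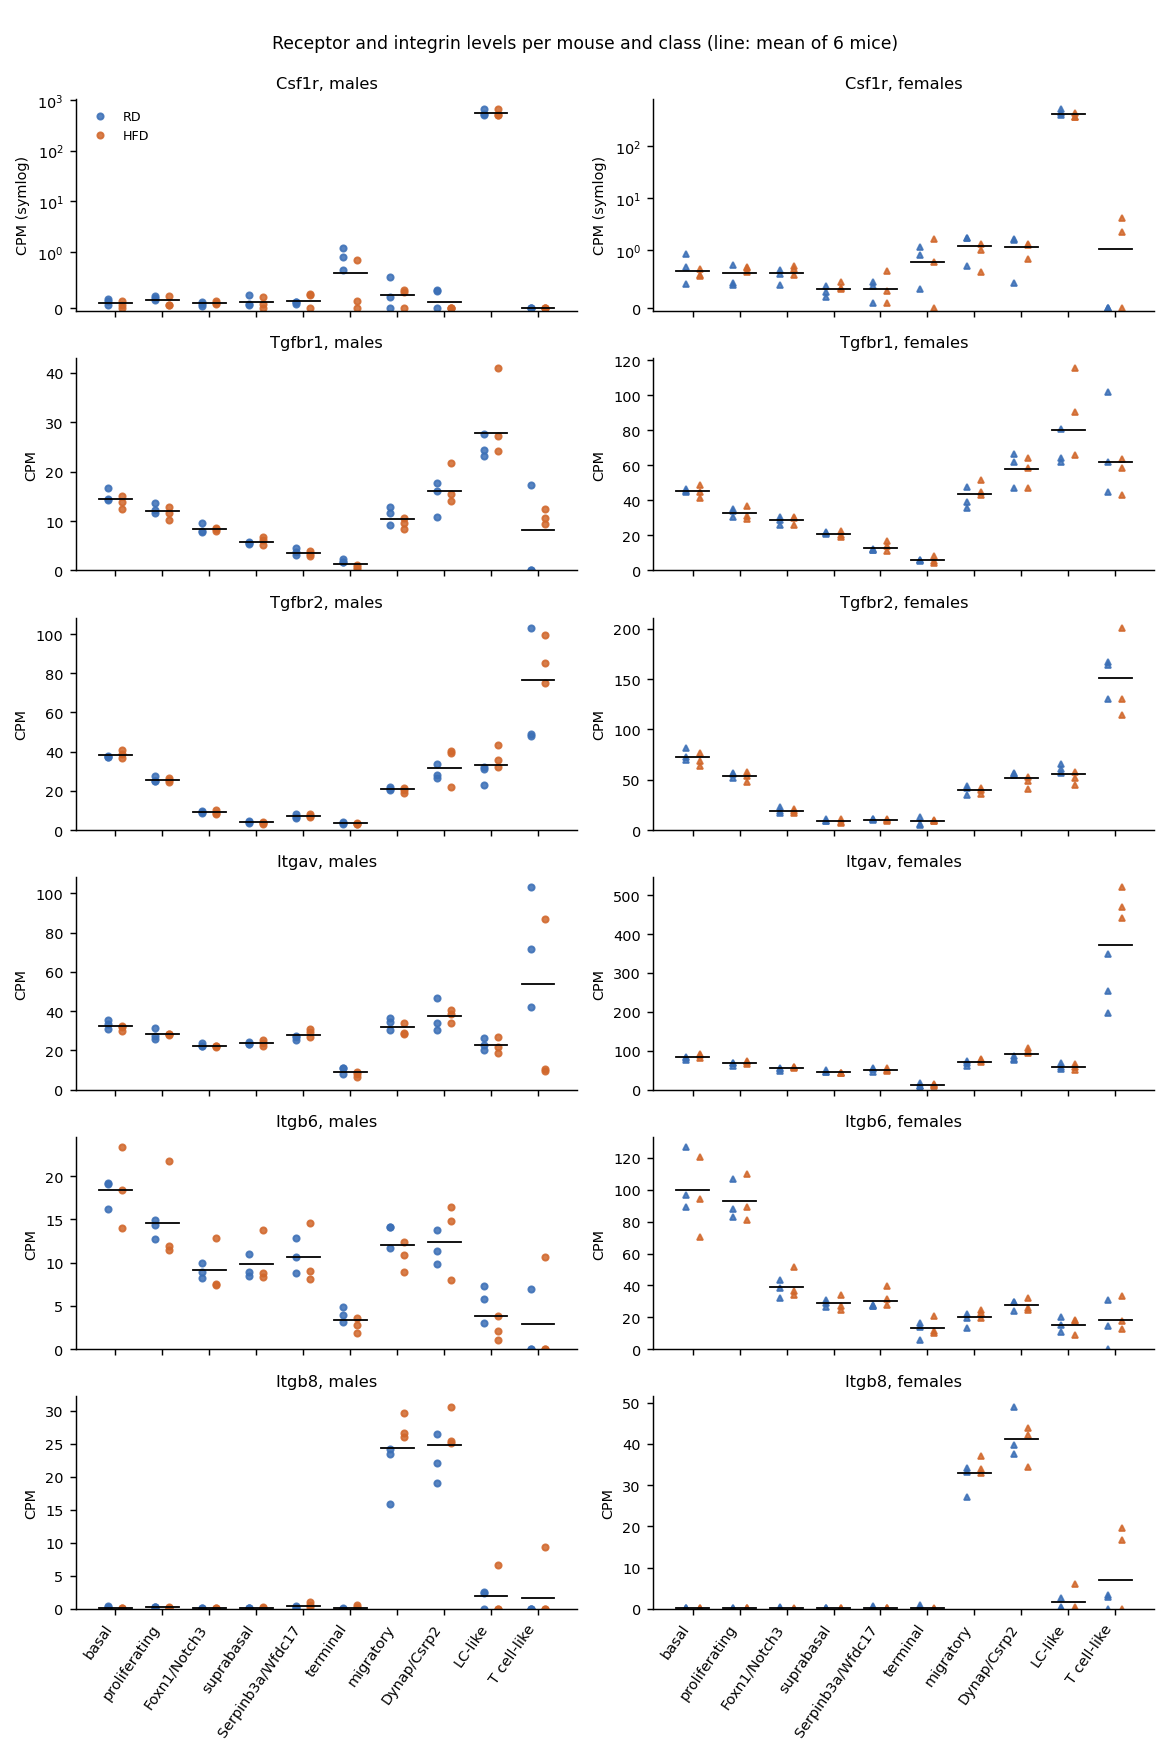
Levels of the receptors Csf1r, Tgfbr1 and Tgfbr2 and of the integrin subunits Itgav, Itgb6 and Itgb8 in each cell class, in CPM, with 1 point per mouse coloured by diet, males on the left and females on the right, and a line at the mean of the 6 mice (the Csf1r axis is logarithmic above 1 CPM). Csf1r stands out in LC-like cells at 494 to 675 CPM in males and 361 to 521 CPM in females, and Itgb8 in migratory cells and the Dynap/Csrp2 cluster.

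The integrin subunits fell into different classes, as the plot of receptors and integrins by class shows. Itgav, the αv subunit common to both activating integrins, was broad. It was measured at 32.3 ± 2.0 CPM in basal cells, 23.6 ± 1.0 in suprabasal cells and 22.8 ± 3.3 in LC-like cells of males, and at 84.0 ± 5.6, 44.8 ± 2.6 and 58.7 ± 7.7 CPM in those of females (SD, n = 6). Among keratinocytes and LC-like cells only the terminally differentiated class lay wholly below the others, at 8.95 ± 1.81 and 11.2 ± 3.0 CPM. The highest mean was that of T cell-like cells, at 54.0 ± 39.6 and 371 ± 128 CPM, with 30 and 653 UMIs behind them.

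Itgb6, the β6 subunit, was highest in basal and proliferating cells. Basal cells held 18.4 ± 3.2 CPM in males and 99.6 ± 20.9 in females and proliferating cells 14.5 ± 3.8 and 92.8 ± 12.4, and the basal and proliferating ranges overlapped in both sexes. Basal cells exceeded suprabasal cells 1.87-fold in males and 3.43-fold in females. LC-like cells held 3.87 ± 2.34 and 14.99 ± 4.48 CPM, which was 32.6% ± 18.4 and 26.8% ± 9.5 of the keratinocyte level, beside 44.9% and 25.3% for the 4 keratins.

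Itgb8, the β8 subunit, was found mainly in 2 keratinocyte classes. Migratory cells held 24.3 ± 4.6 CPM in males and 33.0 ± 3.3 in females, and the Dynap/Csrp2 cluster held 24.8 ± 4.0 and 41.2 ± 5.2 (SD, n = 6). No other keratinocyte class exceeded a mean of 0.404 CPM. Outside the classes, the female cluster led by Sox5 and Lhx2 held 29.9 ± 9.4 CPM of Itgb8, with a range of 14.5 to 38.3, from 161 UMIs, while the male cluster led by Lars2 had 0 UMIs. Migratory cells gave 57.0% ± 11.8 and 51.8% ± 6.7 of all Itgb8 UMIs from 4.80% and 5.38% of the cells, and the Dynap/Csrp2 cluster gave 30.7% ± 9.0 and 32.4% ± 5.2. The β subunits were thus highest in different keratinocytes, Itgb6 in basal and proliferating cells and Itgb8 in these small classes.

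LC-like cells were clustered again to see how the niche genes varied among them. In each sex a main subcluster of 1008 male and 1740 female cells took no name, and 3 smaller ones carried a marker set: 275 and 327 cells with keratinocyte transcripts, 40 and 33 dividing cells (Mki67, Top2a), and 16 and 39 migratory LCs (Ccr7, Fscn1), the form that leaves for lymph nodes. The cells with keratinocyte transcripts had median depths of 13374 and 16846 UMIs, against 4005 and 6270 in the main subcluster. They held 4265019 of the 8604227 male and 5890567 of the 17703583 female LC-like UMIs, and so weigh on the LC-like levels and diet fits. With the highest doublet scores removed and new clusters, 17 female cells carried this name. Whether the cells were doublets was not tested. The values that follow are UMIs pooled over the mice of a sex, since the smallest subclusters held few cells per mouse, and exact Poisson 95% intervals cover counting error only.

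Csf1r stood at 935 CPM in the main subcluster of males and 555 CPM in that of females. It was 701 and 385 CPM in dividing cells, 170 and 155 CPM in cells with keratinocyte transcripts, and 84.8 CPM (31.1 to 185) and 87.1 CPM (55.8 to 129.5) in migratory LCs. The main subcluster was thus 11.0-fold above migratory LCs in males and 6.37-fold in females, with 6 and 24 Csf1r UMIs counted in the latter. Without HFD male replicate 1, which held 4 of the 6, the pooled male level in migratory LCs was 39.2 CPM. The female mice did not overlap, at 490 to 658 CPM in the main subcluster and 14.1 to 157 CPM in migratory LCs. Tgfb1 was 175 and 127 CPM in the main subcluster and 70.7 CPM (22.9 to 165) and 68.9 CPM (41.5 to 108) in migratory LCs, where the mice overlapped in females and, over the 5 males with such cells, did not in males (0 to 130 against 143 to 200 CPM).

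Tgfbr1 stood at 35.4 and 92.7 CPM in the main subcluster, 17.1 and 43.97 CPM in cells with keratinocyte transcripts, 55.1 and 137 CPM in dividing cells and 56.5 CPM (15.4 to 145) and 181 CPM (135 to 239) in migratory LCs, from 4 and 50 UMIs. Single mice overlapped, with female values of 50.8 to 274 CPM in migratory LCs and 74.2 to 117 CPM in the main subcluster. Tgfbr2 was 42.3 and 59.99 CPM in the main subcluster, and 42.4 CPM (8.74 to 124) and 14.5 CPM (3.95 to 37.1) in migratory LCs, from 3 and 4 UMIs. These UMIs came from 2 males and 3 females. The female mice did not overlap, at 48.7 to 71.8 CPM in the main subcluster and 0 to 39.2 CPM in migratory LCs. The males did overlap, at 26.6 to 67.6 CPM and 0 to 102 CPM. Itgav was 23.4 and 53.8 CPM in the main subcluster and 42.4 CPM (8.74 to 124) and 123 CPM (85.4 to 172) in migratory LCs, and the mice overlapped for Itgav too.

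Itgb8 was not found in the main subcluster, with 0 UMIs in either sex, which allows up to 0.747 CPM in males and 0.268 CPM in females (3 counts; counting error only). In migratory LCs it reached 113 CPM (48.8 to 223) and 68.9 CPM (41.5 to 108), from 8 UMIs in 3 cells of 2 males and 19 UMIs in 7 cells of 4 females. Of the female UMIs 13 came from HFD replicate 2, without which the pooled level was 28.0 CPM, and of the male ones 4 each came from RD replicate 1 and HFD replicate 1, without which it was 71.5 and 78.3 CPM. Il34 and Itgb6 went with the keratins. Il34 was 0.249 and 0.446 CPM in the main subcluster, from 1 and 5 UMIs, and 22.3 and 37.3 CPM in cells with keratinocyte transcripts. For Itgb6 the values were 0.498 and 0.625 against 8.44 and 44.6 CPM, and for the 4 keratins 774 and 372 against 31789 and 17469 CPM. In the main subcluster, Il34 was thus at or near 0.

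**Figure D4:**
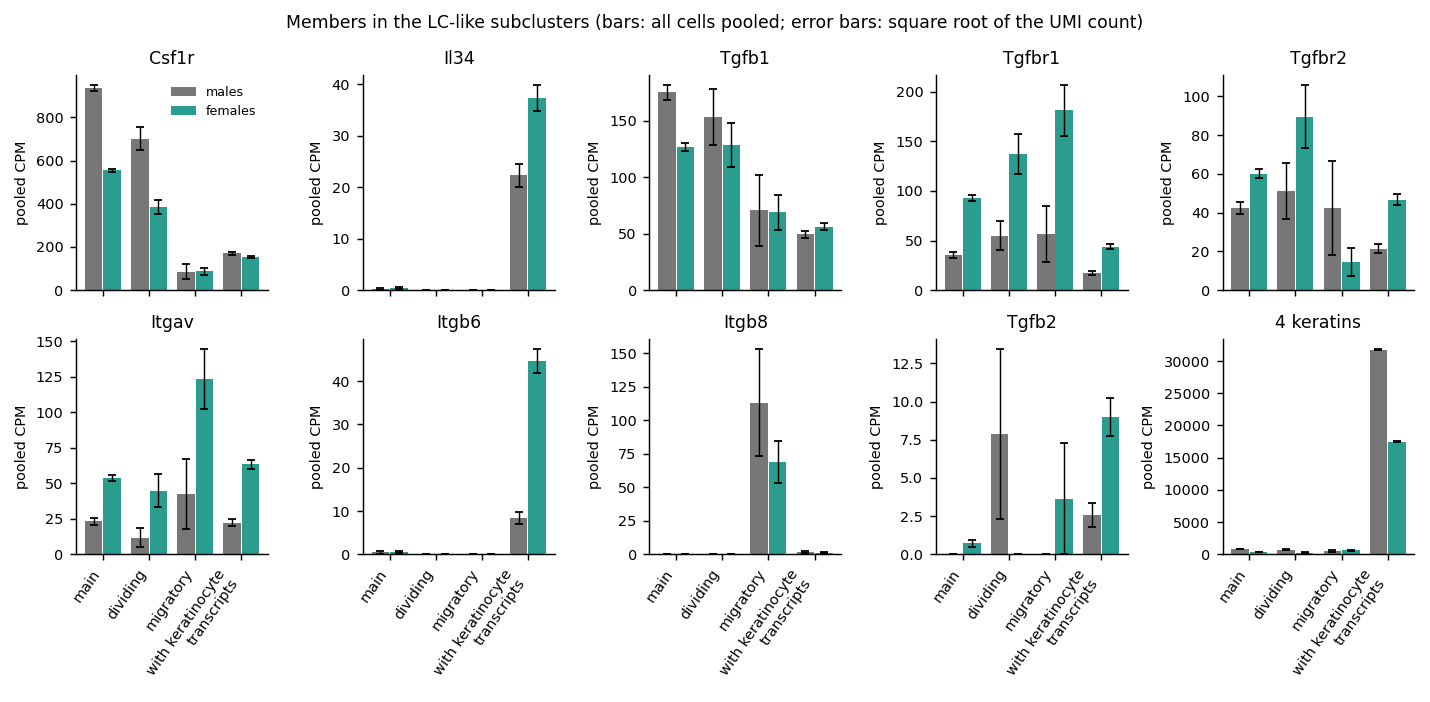
Pooled levels in CPM of the niche genes and of 4 keratins in the subclusters of LC-like cells, for males and females, with error bars at the square root of the UMI count. Csf1r is 935 and 555 CPM in the main subcluster and 84.8 and 87.1 CPM in migratory LCs, Itgb8 appears in migratory LCs, and Il34 and Itgb6 appear with the keratins.

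The genes whose levels followed a member most closely over the 60 class sums of each sex, among 7147 genes, are given as a description, because the sums share libraries and depth. For Il34 they were Aldh3b2 (Pearson's r of log2(CPM + 1) 0.78 in males and 0.85 in females), Mt4 (0.78 and 0.81) and Bdh1 (0.77 and 0.87). Mt4 was also among the genes used to name the Foxn1/Notch3 cluster, where Il34 was high. For Csf1r they were Hapln3 (0.99 and 0.98), Ifi207 (0.99 and 0.98) and Igha (1.00 and 0.98). Csf1r was nearly restricted to LC-like cells, so these values mainly restate which genes were high in that class. Itgb8 was followed by Bgn (0.92 and 0.90), Msrb3 (0.90 and 0.90) and Foxc1 (0.93 and 0.88), and Tgfb2 by Slco2a1 (0.88 and 0.85), Etl4 (0.89 and 0.85) and Lama3 (0.84 and 0.85), which encodes a laminin chain of the basement membrane. Among the closest genes to Itgb6 were Cdcp1 (0.74 and 0.78) and Mcc (0.74 and 0.71).

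Genes that act with the members were counted in LC-like cells. Of 16044 genes with a UMI there in both sexes, 1567 (9.77%) were higher in LC-like cells than in every keratinocyte class in all 12 mice. Of the 10 members 3 were, or 30%: Csf1r, Tgfb1 and Tgfbr1. In the list of CSF1R signalling and its ligand binding partners it was 9 of 14 (64.3%), among them Tyrobp, Syk, Plcg2, Inpp5d, Grb2, Pik3cd, Lyn and Spi1, of which Tyrobp had also served to name the cells. Those given with levels were picked by highest CPM, a rule of naming and no comparison between genes. They were Tyrobp, an adaptor of immune receptors, at 1231 CPM in males and 968 CPM in females, Spi1, which encodes the myeloid factor PU.1, at 369 and 345 CPM, and Grb2, an adaptor of receptor kinases, at 223 and 534 CPM.

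For the TGF-β lists the counts were 2 of 14 (14.3%) for latent TGF-β activation (Nrros and Mmp9), 2 of 18 (11.1%) for receptors and Smads (Acvrl1 and Skil) and 1 of 12 (8.33%) for target genes (Skil), beside 9.77% of all genes with a UMI. That background, used for the members and all lists, counts genes with few UMIs, and a gene without a UMI in a mouse cannot be higher there. In LC-like cells 8187 genes in males and 10521 in females had enough UMIs for the diet test. A background of genes as well measured as the lists was not formed, so no list is called above or below it. Nrros, which tethers latent TGF-β1 on myeloid cells, stood at 33.1 CPM in male and 88.6 CPM in female LC-like cells, Itgb1 at 105 and 161 CPM and Furin, a protease that cleaves the TGF-β precursor, at 82.3 and 153 CPM. Among the Smad regulators, Skil was at 231 and 227 CPM and Smad7, an inhibitory Smad, at 166 and 170 CPM, while the type II BMP receptor Bmpr2 was at 51.0 and 97.2 CPM and the shared Smad4 at 104 CPM in females. Of the targets, Cdkn1a was at 623 and 814 CPM and Pmepa1 at 229 and 336 CPM. In the list of LC identity factors and surface genes 6 of 16 (37.5%) were higher (Cd207, Epcam, Runx3, Irf4, Irf8 and Mfge8), Cd207 and Mfge8 again being naming markers. Mfge8 stood at 4256 and 4532 CPM and the adhesion molecule Epcam at 694 and 716 CPM.

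HFD was then compared with RD within each sex, in the whole library and in each of 8 classes, on UMIs summed per mouse. The test was edgeR's quasi-likelihood F test with Benjamini-Hochberg adjustment over all genes and a threshold of 0.05. No member passed in any of the 27 comparisons, those of the diet by sex interaction included, and DESeq2 called 0 members as well. Of 72 member fits in males 5 had an unadjusted p under 0.05 (6.94%, against 9.63% of all gene fits), of 77 in females 5 did (6.49% against 16.8%), and of 76 interaction fits 9 did (11.8% against 13.1%). The lowest adjusted p of any member was 0.120 for males, 0.135 for females and 0.177 among interaction fits. Members that were not tested in a class had too few UMIs there.

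Few genes of any kind passed in males in the main edgeR fits. The share of all tested genes past the threshold was 0% in the whole library and in LC-like, basal, proliferating, suprabasal, Serpinb3a/Wfdc17, terminally differentiated and migratory cells of males, and 0.0407% in the Foxn1/Notch3 cluster. These counts depended on the setting. With no filter on low counts edgeR called genes in every male comparison, from 49 in LC-like to 753 in terminally differentiated cells. In terminally differentiated males the main fit called 0 genes (2255 had an unadjusted p under 0.05 in edgeR), DESeq2 443, the raised resolution 830 and the fits without single mice 0 to 1104. In females the share in the main fits was 2.36% in the whole library, 0.057% in LC-like cells, 0.9% in basal, 1.8% in proliferating, 1.59% in Foxn1/Notch3, 3.27% in suprabasal, 0.141% in Serpinb3a/Wfdc17, 0% in terminally differentiated and 0.475% in migratory cells. For the interaction it was 1.1% in the whole library, 0% in LC-like and terminally differentiated cells, and 0.0417%, 0.042%, 0.0857%, 0.415%, 0.64% and 0.162% in basal, proliferating, Foxn1/Notch3, suprabasal, Serpinb3a/Wfdc17 and migratory cells. Against these shares a count of 0 among 6 to 10 tested members is no result about the members.

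Il34 in the classes that gave most of it did not pass the test. In the Foxn1/Notch3 cluster the RD males measured 36.8, 50.3 and 44.9 CPM and the HFD males 45.9, 38.8 and 41.9 CPM, with overlapping groups and a log2 difference of HFD minus RD of -0.01 (95% interval -0.23 to 0.22). RD females measured 83.9, 73.6 and 81.6 CPM and HFD females 79.9, 81.0 and 77.2 CPM, also overlapping, with a log2 difference of -0.03 (-0.17 to 0.11). The intervals of both sexes thus lay within 0.23 of 0 on the log2 scale. In suprabasal cells RD males measured 27.8, 36.4 and 40.3 CPM and HFD males 33.1, 26.0 and 32.9 CPM (log2 difference -0.14, -0.43 to 0.15). RD females measured 90.2, 83.0 and 90.0 CPM and HFD females 91.9, 103 and 92.4 CPM (log2 difference 0.09, -0.04 to 0.23). The female groups did not overlap here, yet the adjusted p was 0.423.

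Outside these classes Il34 differed more between the diets in some fits, without passing. In migratory cells RD females measured 43.6, 39.7 and 35.3 CPM and HFD females 28.9, 31.8 and 34.4 CPM, groups that did not overlap (log2 difference -0.35, -0.61 to -0.09, adjusted p = 0.198 in edgeR). In proliferating cells of females the values were 24.9, 25.9 and 23.9 CPM on RD and 22.4, 20.1 and 20.7 CPM on HFD (log2 difference -0.27, -0.46 to -0.07, adjusted p = 0.135), without overlap. Terminally differentiated cells of males held 4.65, 7.29 and 4.46 CPM on RD and 2.04, 2.57 and 3.41 CPM on HFD (log2 difference -0.72, -1.28 to -0.16, adjusted p = 0.120). These groups did not overlap either, at levels near the bottom of the Il34 range. Their CPM means, 5.47 and 2.67, lie further apart than the fitted difference, which includes edgeR's TMM scaling. In the whole library of females Il34 was 49.9, 46.4 and 50.2 CPM on RD and 46.2, 47.6 and 45.7 CPM on HFD, with overlap (log2 difference -0.12, unadjusted p = 0.0437, adjusted p = 0.228). The Serpinb3a/Wfdc17 cluster of females went the other way, with 36.9, 36.9 and 36.3 CPM on RD and 42.9, 39.8 and 40.4 CPM on HFD. Those groups did not overlap, and the fit did not pass. Over the 8 classes the log2 difference was below 0 in 8 of 8 fits in males (-0.72 to -0.01) and in 4 of 8 in females (-0.35 to 0.13), and the classes share the same mice.

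The Tgfb ligands did not pass either. Tgfb1 in LC-like cells measured 106, 114 and 119 CPM in RD males and 126, 115 and 97.9 CPM in HFD males (log2 difference -0.02, -0.34 to 0.30). In females it was 107, 102 and 112 CPM on RD and 85.8, 120 and 88.8 CPM on HFD (log2 difference -0.14, -0.44 to 0.17). The diet groups overlapped in both sexes. In migratory cells of females, by contrast, HFD mice were all above RD mice, at 22.6, 33.4 and 24.7 CPM against 18.7, 19.7 and 22.4 CPM (log2 difference 0.37, 0.03 to 0.72, adjusted p = 0.302). In suprabasal cells, where Tgfb1 is scarce, RD females held 1.59, 1.68 and 1.48 CPM and HFD females 2.04, 2.67 and 1.99 CPM (log2 difference 0.45, 0.03 to 0.87, adjusted p = 0.198). In the Serpinb3a/Wfdc17 cluster of males the values were 2.11, 4.02 and 1.91 CPM on RD and 0.645, 0.681 and 1.80 CPM on HFD (log2 difference -1.27, -2.28 to -0.26, adjusted p = 0.263). None of these differences met the threshold.

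The diet by sex interaction of Tgfb1 had an unadjusted p under 0.05 in 5 fits, with the male diet effect lower than the female one in each. The log2 difference between the effects was -0.32 (SE 0.14) in the whole library, -0.59 (SE 0.24) in the Foxn1/Notch3 cluster, -0.77 (SE 0.27) in suprabasal cells, -1.48 (SE 0.58) in the Serpinb3a/Wfdc17 cluster and -0.56 (SE 0.22) in migratory cells. Adjusted p values were between 0.177 and 0.394, so the sexes were not shown to differ. These fits share mice, and the whole library holds the cells of the other 4. The remaining interactions with an unadjusted p under 0.05 were those of Tgfbr2 in LC-like cells, Il34 (-0.53, adjusted p = 0.232) and Itgav (0.29, adjusted p = 0.224) in the Serpinb3a/Wfdc17 cluster and Itgb6 in migratory cells (-0.57, adjusted p = 0.465).

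Tgfb2 in basal cells measured 12.04, 11.0 and 10.6 CPM in RD males and 14.2, 14.1 and 10.9 CPM in HFD males (log2 difference 0.26, adjusted p = 0.803). In females it was 22.9, 19.7 and 23.7 CPM on RD and 27.0, 28.0 and 22.5 CPM on HFD (log2 difference 0.22, adjusted p = 0.334). Both pairs of groups overlapped. In proliferating cells of males the groups did not overlap, with 8.95, 7.57 and 9.43 CPM on RD and 12.4, 12.1 and 9.62 CPM on HFD (log2 difference 0.40, 0.09 to 0.70, adjusted p = 0.381).

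Csf1r in LC-like cells overlapped between the diets in both sexes. RD males measured 509, 517 and 675 CPM and HFD males 660, 494 and 500 CPM (log2 difference -0.06, -0.42 to 0.30, adjusted p = 0.986). RD females measured 521, 431 and 387 CPM and HFD females 361, 426 and 366 CPM (log2 difference -0.22, -0.51 to 0.06, adjusted p = 0.643). The highest Csf1r value of each sex came from an RD mouse. In the whole library Csf1r was 5.38 to 8.31 CPM in males and 7.46 to 12.5 CPM in females. The 4 keratins in LC-like cells had medians of 14999.6 CPM on RD and 15040.1 CPM on HFD in males and 5965 and 7441 CPM in females. Without the 25% of LC-like cells of each mouse highest in keratins, the log2 difference of Csf1r was -0.20 (adjusted p = 0.681) in males and -0.25 (adjusted p = 0.347) in females, again past no threshold. The 10 macrophage and monocyte markers in LC-like cells summed to 394 to 579 CPM in RD and 517 to 959 CPM in HFD males, which overlapped, and to 186 to 241 CPM in RD and 248 to 292 CPM in HFD females, which did not. In 1 male, HFD replicate 2, the macrophage genes Mrc1, Lyz2 and Cd163 stood at 31.9, 134 and 15.5 CPM, while no other male exceeded 0.522, 3.45 and 0 CPM. Without that mouse the log2 difference of Csf1r in males was 0.00 (adjusted p = 0.999). For Tgfb1, Tgfbr1 and Itgav it was -0.05, 0.28 and 0.01, with adjusted p of 0.952 to 0.999.

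Tgfbr1 in LC-like cells measured 27.6, 24.4 and 23.1 CPM in RD males and 40.9, 27.2 and 24.1 CPM in HFD males (log2 difference 0.22, -0.29 to 0.73, adjusted p = 0.970). RD females measured 80.8, 61.9 and 64.3 CPM and HFD females 66.2, 116 and 90.5 CPM (log2 difference 0.38, -0.05 to 0.81, adjusted p = 0.599). The highest value of each sex was that of an HFD mouse, and the groups overlapped. In terminally differentiated cells of males RD values of 1.65, 2.28 and 1.71 CPM stood above HFD values of 0.255, 0.734 and 1.14 CPM (log2 difference -1.08, -2.01 to -0.15, adjusted p = 0.142), from 59 UMIs in all. The CPM means, 1.88 and 0.709, again lie further apart than the scaled difference.

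Tgfbr2 in LC-like cells differed in opposite directions in the sexes. RD males measured 23.0, 31.2 and 32.2 CPM and HFD males 32.1, 43.5 and 35.9 CPM (log2 difference 0.38, -0.07 to 0.83, adjusted p = 0.940). RD females measured 65.5, 60.6 and 56.8 CPM and HFD females 44.4, 57.3 and 52.1 CPM (log2 difference -0.26, -0.55 to 0.03, adjusted p = 0.592). The groups overlapped in each sex by a small margin, 1 HFD mouse lying within the RD range. The interaction was 0.63 on the log2 scale (0.13 to 1.13, unadjusted p = 0.0172), and its adjusted p in edgeR was 0.918. Without the 25% of cells highest in keratins it was 0.40 (adjusted p = 0.818), and the male difference was 0.24. Without the HFD male high in Mrc1 the male difference was 0.23 (adjusted p = 0.952).

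Itgb8 in migratory keratinocytes measured 23.4, 15.9 and 24.2 CPM in RD males and 29.7, 26.7 and 26.1 CPM in HFD males, with no overlap (log2 difference 0.39, 0.03 to 0.74, adjusted p = 0.914). In females it was 34.3, 27.0 and 33.2 CPM on RD and 32.9, 37.1 and 33.8 CPM on HFD (log2 difference 0.10, adjusted p = 0.712), with overlap. Itgb6 in basal cells was 19.1, 19.2 and 16.2 CPM in RD males and 18.4, 23.4 and 14.0 CPM in HFD males, and 89.1, 97.0 and 127 CPM in RD females and 94.2, 70.2 and 120 CPM in HFD females. The spread between mice of 1 diet was wider than the gap between the diets. Itgav in basal cells was 33.3, 30.9 and 35.6 CPM in RD males and 31.7, 32.3 and 30.004 CPM in HFD males, and in females 80.9, 76.1 and 84.3 CPM on RD and 88.2, 82.5 and 92.1 CPM on HFD, again overlapping. Elsewhere in females the diet groups of Itgav separated in either direction without passing. HFD lay wholly above RD at 62.1, 66.2 and 66.6 against 59.7, 58.8 and 59.7 CPM in the whole library (log2 difference 0.08, -0.04 to 0.20, adjusted p = 0.449) and at 55.1, 58.98 and 59.3 against 48.9, 52.9 and 54.9 CPM in the Foxn1/Notch3 cluster (0.12, -0.02 to 0.27, adjusted p = 0.352). In suprabasal cells HFD lay wholly below RD, at 43.9, 41.6 and 43.5 against 45.1, 49.4 and 45.5 CPM (-0.15, -0.31 to 0.01, adjusted p = 0.255). Over the 8 classes the female difference was below 0 in 4 and above 0 in 4.

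**Figure D5:**
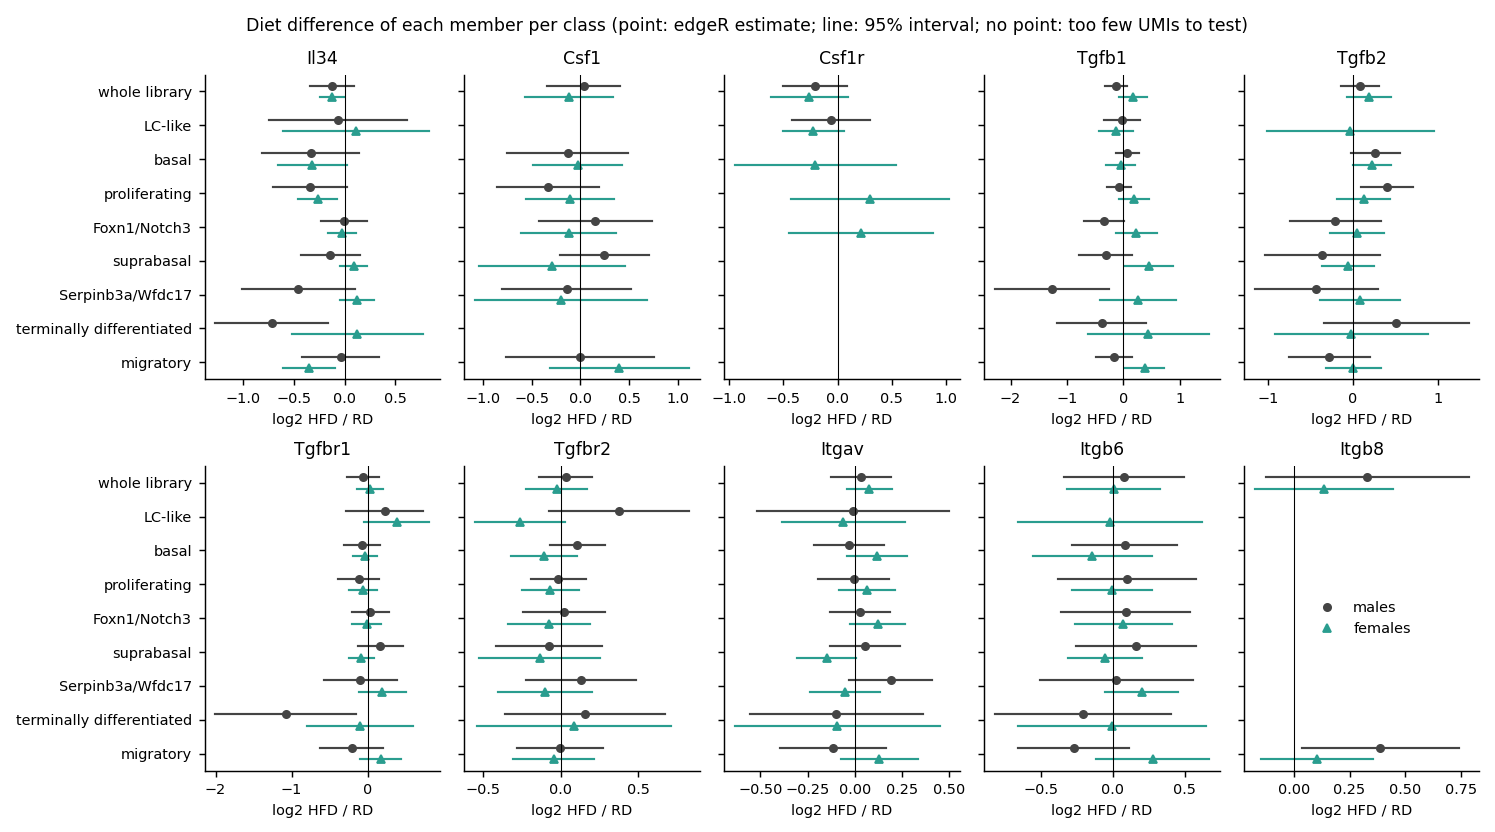
Log2 difference of HFD minus RD of each member in the whole library and in each class, with points at edgeR's estimate and lines over the 95% interval for males and females (no point where too few UMIs allowed a test). Most intervals hold 0, such as -0.23 to 0.22 for Il34 in the Foxn1/Notch3 cluster of males, and no member passed the test after adjustment.

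In the plot of diet differences the intervals of 10 of the 149 fits within a sex exclude 0, those with an unadjusted p under 0.05. Over the members tested, the median log2 difference lay between -0.21 and 0.03 across the 9 male comparisons and between -0.07 and 0.13 across the 9 female ones, while the median of all genes lay between -0.06 and 0.00 and between 0.00 and 0.03.

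The pathway lists were read in the same fits. In males 0 genes of the 5 lists passed in any class. In females the list of latent TGF-β activation had 2 calls downward and 0 upward among 102 gene fits over the 9 comparisons (1.96%), receptors and Smads 2 downward among 151 (1.32%), LC identity factors 2 downward among 105 (1.9%), and CSF1R signalling and TGF-β targets 0 among 80 and 91. Of all female gene fits 1.33% passed, so these shares are near the background. In LC-like cells 0 list genes passed in either sex, and the median log2 difference of the CSF1R list there was 0.22 in males (11 genes tested) and 0.02 in females (12 tested), against 0.00 for all genes in each.

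Mmp2, a gelatinase, fell on HFD in females. In the whole library it went from 34.3, 32.5 and 35.02 CPM on RD to 24.3, 27.3 and 28.9 CPM on HFD (log2 difference -0.39, SE 0.07, adjusted p = 0.0351 in edgeR), and in proliferating cells from 32.2, 28.4 and 31.8 to 20.6, 21.8 and 20.9 CPM (log2 difference -0.57, SE 0.07, adjusted p = 0.0171). Every HFD mouse lay below every RD mouse. Leaving out single mice ended the call in 5 of 6 fits in the library (adjusted p up to 0.141) and in 4 of 6 in proliferating cells (up to 0.0840), with differences of -0.47 to -0.35 and -0.61 to -0.55. With the replicate block the adjusted p was 0.0987 and 0.0605.

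Smad5, a BMP-activated Smad, fell in the whole library of females from 28.2, 26.6 and 26.6 CPM to 22.3, 24.4 and 22.5 CPM (log2 difference -0.29, SE 0.05, adjusted p = 0.0390). Ski, a repressor of Smad transcription, fell in female basal cells from 147, 159 and 146 to 117, 121 and 108 CPM (log2 difference -0.39, SE 0.07, adjusted p = 0.0413). The diet groups did not overlap for either gene. The calls were lost in 5 of 6 fits without a single mouse, with adjusted p up to 0.162 for Smad5 and 0.171 for Ski. The replicate block ended both as well (adjusted p = 0.130 and 0.110), and in all 1 of 7 other alternatives ended the Smad5 call and 2 of 7 the Ski call.

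Ahr, the aryl hydrocarbon receptor, fell in female suprabasal cells from 34.4, 35.9 and 35.2 to 28.7, 29.4 and 30.2 CPM (log2 difference -0.29, SE 0.07, adjusted p = 0.0447). Klf4, a factor of keratinocyte differentiation, fell in female migratory cells from 1148, 1089 and 1104 to 918, 855 and 825 CPM (log2 difference -0.39, SE 0.07, adjusted p = 0.0483). In both cases the calls were in keratinocytes and not in LC-like cells, although the genes stood in the LC list. The call was lost in 5 of 6 fits without a single mouse for Ahr (adjusted p up to 0.167) and in 6 of 6 for Klf4 (up to 0.189). Of the other alternatives, the replicate block included, 3 of 6 ended the Ahr call and 4 of 7 the Klf4 call.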

How the data were processed

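Per the labels and the file headers, the authors counted 10x reads with Cell Ranger (7.2.0 in the submitters' processing notes and in female headers, 6.1.0 in male ones) against GRCm38 (mm10), and deposited raw UMI counts per gene and cell for each of 12 mice. Whether intronic reads were counted is not given in the sources used here. Following the study's limits, cells were used if they had no more than 5% mitochondrial UMIs and 200 (males) or 500 (females) to 6000 genes. Doublets stayed in the main fits and were removed in an alternative. Each sex was clustered with leidenalg 0.10.2 at resolution 0.2 (males) or 0.3 (females), with neither members nor pathway genes among the variable genes. Clusters were named from marker lists. UMIs were summed per mouse and class and tested with edgeR 4.0.16 (TMM, filterByExpr, quasi-likelihood F test, R 4.3.3), which was tested on simulated data. DESeq2 1.42.0, other filters, other cell filters and clusterings, left-out mice and a replicate block were alternatives. The Foxn1/Notch3 and Serpinb3a/Wfdc17 clusters were added as classes after seeing the data, as was LC-like without the subcluster with keratinocyte transcripts. T cell-like cells and the Dynap/Csrp2 cluster were described and not tested.

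Named were all 10 members, list genes past the threshold, the 3 list genes highest in LC-like cells, and the 3 genes most like Il34, Csf1r, Tgfb2, Itgb6 and Itgb8 among genes with a mean of at least 20 CPM in a class in both sexes. Some genes that this rule or a list holds are not reported here. The members and lists were chosen with earlier results of these data known. Replicate numbers are shared by the groups, but no label ties them to a litter or day, and in 0 of 18 fits did all 3 same-numbered pairs of deviations correlate above 0.1 (range -0.34 to 0.14), so mice were not paired. Intervals of pooled counts cover counting error only.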

Additional observations from a re-analysis of the deposited data

Results flagged for a closer look

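Bmpr2, the type II BMP receptor, was singled out because the diet effect differed between the male and female libraries by its own test. In the Serpinb3a/Wfdc17 cluster it measured 92.0, 89.9 and 84.5 CPM in RD males and 100.1, 98.0 and 103 CPM in HFD males, and 152, 141 and 145 CPM in RD females against 134, 125 and 115 CPM in HFD females. Every HFD male lay above every RD male and every HFD female below every RD female. The log2 diet effect was 0.23 (adjusted p = 0.261) in males and -0.27 (adjusted p = 0.144) in females in edgeR, neither past the threshold. The interaction came from a separate edgeR fit that scaled the mice of both sexes together, and is not the plain difference of these values. It was 0.55 (95% interval 0.32 to 0.78, adjusted p = 0.0403). Leaving out single mice ended the call in 10 of 12 fits, with differences of 0.48 to 0.59 and adjusted p of 0.0345 to 0.109. Of 3 other alternatives 1 ended it, the removal of the highest doublet scores followed by new clusters (0.40, adjusted p = 0.0823). The female cluster of this name then held 8893 cells, against 3329 in the main run, and no female cluster was named suprabasal. Which of these changes ended the call was not tested. The replicate block and other size factors were not run for interactions. Of all genes tested there, 0.64% passed the interaction. Bmpr2 is no member of the niche genes but stands in the list of receptors and Smads. Male and female libraries also differed in counting software and in the lower limit of genes per cell. They were clustered apart, so the male and female clusters of this name need not hold like cells. Whether the interaction comes from sex or from these differences was not tested.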

How the results depend on the processing

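Over 3149 fits of a member under an alternative, 2 passed the threshold: Tgfb1 in the Serpinb3a/Wfdc17 cluster of males with no filter on low counts (log2 difference -1.24, adjusted p = 0.0483) and Il34 in terminally differentiated cells of males with the resolution raised by 0.3 (-0.93, adjusted p = 0.0371). Each made 1 member called in place of 0, of 10 and 8 tested, where 2.2% and 8.54% of all genes tested passed (386 and 830 genes in place of 0), and the cause was not tested. In 304 fits the sign changed with neither value past the threshold. With the replicate block, which was run within each sex and not for the interaction, 0 members were called in any comparison, as without it. The 6 list-gene calls in females were lost with it (adjusted p 0.0605 to 0.130). Counts of genes called depended on the mice and the tool: in the whole library of females 428 became 2 to 648 without single mice, 1366 in DESeq2 and 3 with the replicate block, in suprabasal cells of females 425 became 9 to 863, 555 and 104, in LC-like cells of females 6 became 0 to 44, 32 and 0, in the whole library of males 0 became 196 in DESeq2, and in terminally differentiated cells of males 0 became 0 to 1104 without single mice, 443 in DESeq2 and 20 with the replicate block. Without keratin-rich cells the LC-like count in females was 78, and without the subcluster with keratinocyte transcripts 96, and in males it was 8 under each in place of 0, with 0 members called.

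Of 233 class levels under an alternative 13 moved by 1 SD or more. With the highest doublet scores removed, LC-like cells of males gave 874 CPM for Csf1r, 166 for Tgfb1, 37.5 for Tgfbr1 and 43.6 for Tgfbr2, those of females 548 for Csf1r and 126 for Tgfb1, Il34 was 41.9 in suprabasal cells of males and 87.1 in the Foxn1/Notch3 cluster of females, and Itgb8 was 37.6 in migratory cells of females. With up to 10% mitochondrial UMIs Il34 in females was 86.0 in the Foxn1/Notch3 cluster and 71.0 in suprabasal cells, and with the raised resolution 80.7 in suprabasal cells of females and 50.8 in the Foxn1/Notch3 cluster of males. In both of these runs the female suprabasal class took in a cluster with Serpinb3a and Wfdc17 among its leading genes. No level moved by 1 SD without a single mouse. Suprabasal cells of females gave no value with doublets removed, nor did the Serpinb3a/Wfdc17 cluster of females with 10% mitochondrial UMIs or the raised resolution, because no cluster took that name. Depth limits Csf1, Tgfb2, Itgb6 and Itgb8 in LC-like cells, which had 13 to 38 UMIs in males.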

Other observations

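Itgav in T cell-like cells belonged to no test, since that class held 23 to 89 cells per mouse. In females it measured 196, 253 and 348 CPM on RD and 442, 469 and 520 CPM on HFD, with every HFD mouse above every RD mouse. In males it measured 41.9, 71.7 and 103 CPM on RD and 9.39, 86.9 and 10.7 CPM on HFD, with overlap, from 30 UMIs in all. Tgfb1 in T cell-like cells separated in males, at 83.9, 159 and 121 CPM on RD and 235, 174 and 192 CPM on HFD. In females its groups overlapped, at 189, 123 and 248 CPM on RD and 223, 243 and 153 CPM on HFD. The differences between the diets were not tested, and these genes were chosen after their values were seen.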
